A study of Mus musculus with 32 samples.

Results

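Glutathione peroxidases were followed through 14 RNA-seq libraries of mouse embryonic stem (ES) cells and through 2 lists of CTCF binding sites. The family members were Gpx1, Gpx2, Gpx3, Gpx4, Gpx7 and Gpx8, that is 6 of the 24940 genes in the RPKM table. They were grouped by family name, and the family itself was chosen on the rise of Gpx2 by more than 3-fold in the mutant lines, so that rise is described here and not tested. All 6 members had a mean of at least 1 RPKM (a read count scaled to exon length and to library size) in 1 of the genotypes and entered the fit over 12468 genes.

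All cells were of mouse strain 129. The GC lines carried CTCF fused to green fluorescent protein (genotype GFP-CTCF), and the d8 lines carried the same fusion without zinc finger 8 (genotype GFP-CTCF-Del8), so the controls also held a fusion protein. CTCF, an architectural DNA-binding factor with several zinc fingers, organises chromatin loops jointly with cohesin. RNA came from 2 GC lines and 3 d8 lines, as 3 samples per line except for d8 line 3 with 2. The CTCF peak lists came from 1 GC and 1 Del8 ChIP-seq library. The labels do not say whether a line is a single clone, or whether unfused CTCF remained in it.

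Glutathione peroxidases reduce hydrogen peroxide and organic hydroperoxides with electrons from glutathione. In mouse, Gpx1, Gpx2, Gpx3 and Gpx4 are selenoproteins with selenocysteine in the active site, while Gpx7 and Gpx8 use cysteine and reside in the endoplasmic reticulum. Gpx2 is best known from the epithelium of the gut, whereas Gpx4, the enzyme that repairs oxidised membrane lipids, is required in early mouse embryos.

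The bases just upstream of Gpx2 and of Gpx8 are shown because Gpx2 is the member that chose the family and because Gpx8 is the member with a CTCF peak next to its start site. Both are RefSeq sequences of GRCm38.p6 (the build also called mm10), minus strand, 5′ to 3′, ending at the base before the start site, at chr12:76795555-76795804 for Gpx2 and chr13:113046389-113046638 for Gpx8. Capitals mark bases under a peak of the GC list, and Gpx2 has none.
Gpx2: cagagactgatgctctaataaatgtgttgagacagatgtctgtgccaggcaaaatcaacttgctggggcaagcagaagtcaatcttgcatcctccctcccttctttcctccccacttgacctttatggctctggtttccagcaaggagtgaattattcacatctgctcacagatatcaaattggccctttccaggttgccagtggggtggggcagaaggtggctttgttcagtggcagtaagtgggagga
Gpx8: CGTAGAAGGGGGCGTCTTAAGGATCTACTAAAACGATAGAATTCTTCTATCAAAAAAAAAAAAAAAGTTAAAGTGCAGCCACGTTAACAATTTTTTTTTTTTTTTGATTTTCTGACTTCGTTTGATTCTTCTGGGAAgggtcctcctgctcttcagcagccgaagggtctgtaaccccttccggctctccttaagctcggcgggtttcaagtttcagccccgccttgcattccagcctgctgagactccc
The peak of the GC list covered 137 of these Gpx8 bases, at the end far from the start site, and the peak of the Del8 list covered 106.

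The RNA-seq libraries held an estimated 14.3 to 16.7 M reads, of which 12 to 14.1 M lay in genes. These depths were read back from the steps between low RPKM values. The pluripotency markers were present in all libraries, with Pou5f1 at 449 to 624 RPKM in GC and 538 to 610 RPKM in d8. One line stood apart: Ctcf was at 5.58 to 6.23 RPKM in GC line 1, whereas GC line 2 had 22.9 to 30.8 RPKM and the d8 libraries 23.2 to 37.2 RPKM. The level of the whole gene says nothing of the deletion itself. Genes of chromosome 11, which holds Gpx3, had a median log2 fold change of -0.40 over 1067 tested genes, against -0.00485 for the others.

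Gpx1 had the highest level of the family in every library. RPKM is scaled to transcript length, so levels can be set side by side. Over the 5 lines the mean levels ran from Gpx1 at 356 ± 72.8 RPKM (SD, n = 5 lines) through Gpx4 at 53.9 ± 6.87, Gpx2 at 30.7 ± 18.5, Gpx3 at 16.8 ± 5.08 and Gpx7 at 6.83 ± 1.94 to Gpx8 at 4.45 ± 1.26 RPKM. Gpx1 lay above Gpx4, and Gpx3 above Gpx7, in 14 of 14 libraries. The other neighbours in this order crossed: Gpx4 lay above Gpx2 in 11 libraries, Gpx2 above Gpx3 in 11 and Gpx7 above Gpx8 in 12. The mean of Gpx2 was below that of Gpx3 in GC, 12.7 against 13.8 RPKM. In d8 it was above, 42.7 against 18.8 RPKM. Within GC the order varied by library, with Gpx2 above Gpx3 in 1B, 1C and 2B and below it in 1A, 2A and 2C. Summed over the 6 members, the level was 523 ± 35.5 RPKM in GC (SD, n = 2 lines) and 432 ± 27.8 RPKM in d8 (SD, n = 3 lines). The share of Gpx1 in that sum was 82.0% in GC and 70.8% in d8, and the share of Gpx2 was 2.44% and 9.81%. These shares are a description, since the rise that chose the family enters them.

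**Figure D1:**
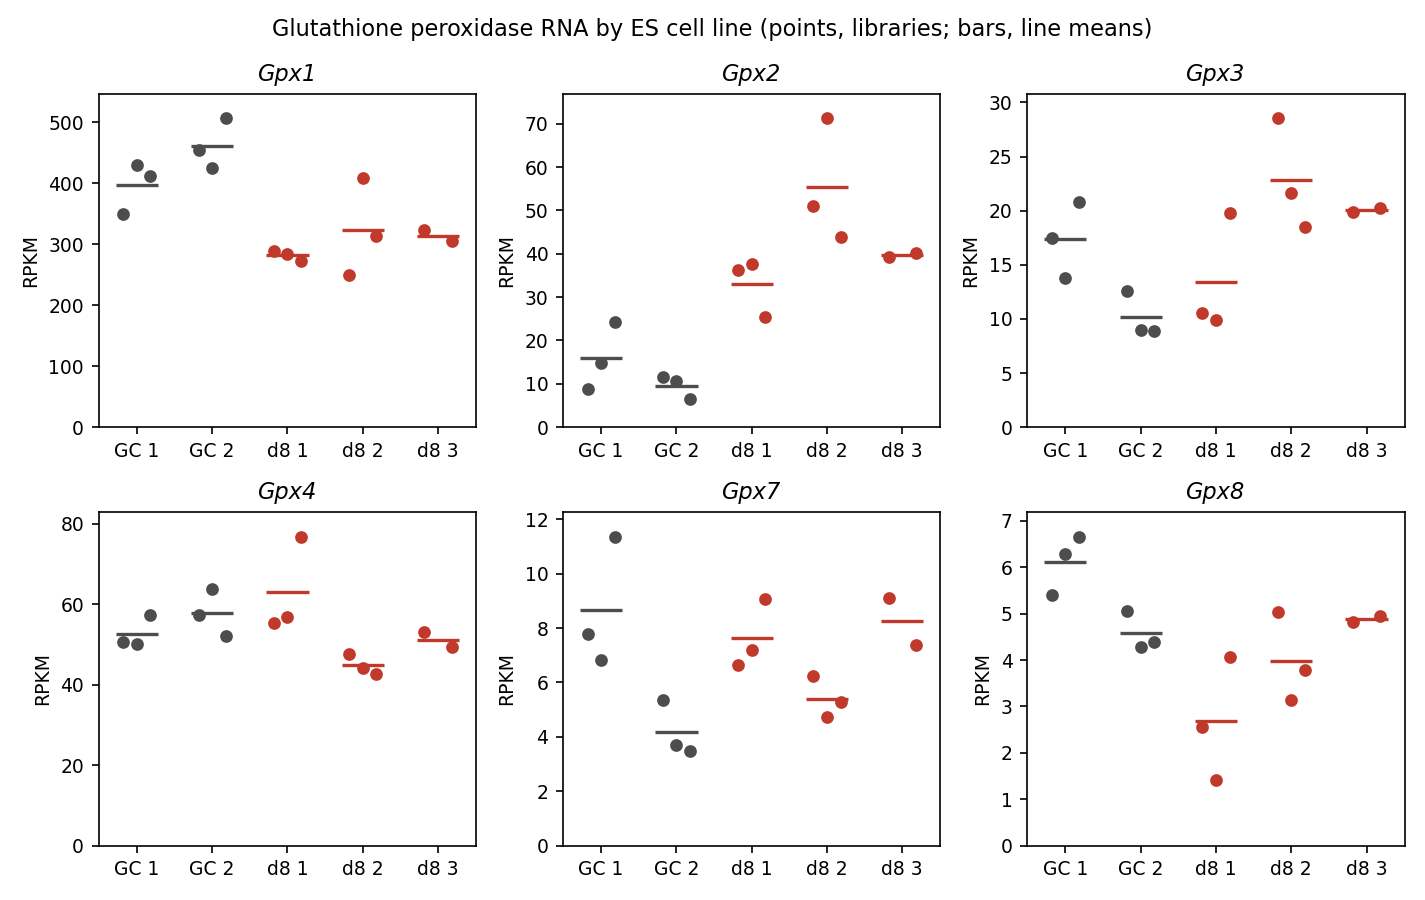
RPKM of each glutathione peroxidase in 14 libraries, by ES cell line (x axis) with its own y axis from 0. Points are libraries, bars are line means, grey is GC and red is d8. The Gpx2 panel shows every d8 library above every GC library, with the closest pair at 24.2 and 25.4 RPKM.

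Gpx2 (chromosome 12, 76792335 to 76795554, minus strand) was measured at 8.71, 14.8 and 24.2 RPKM in GC line 1 and at 11.5, 10.6 and 6.49 RPKM in GC line 2. In d8 it was measured at 36.2, 37.7 and 25.4 RPKM in line 1, at 50.9, 71.3 and 43.9 RPKM in line 2 and at 39.3 and 40.3 RPKM in line 3. All 8 d8 libraries were above all 6 GC libraries, but the margin was narrow: library 1C of d8 stood at 25.4 RPKM and library 1C of GC at 24.2 RPKM. The means were 12.7 ± 4.52 RPKM in GC (SD, n = 2 lines) and 42.7 ± 11.4 RPKM in d8 (SD, n = 3 lines), which is a ratio of 3.36 or a log2 difference of 1.74. Gpx2 was the member inside the 3-fold limit, and the next ratio outside it was that of Gpx3 at 1.37. With any 1 of the 14 libraries or 5 lines left out, the log2 fold change of Gpx2 lay between 1.43, without GC line 2, and 2.04, without GC line 1. The estimated reads behind Gpx2 ranged from 115 to 1222 per library. Its transcribed pseudogene Gpx2-ps1 on chromosome 7 was at no more than 0.323 RPKM in any library. How reads matching both were assigned is not given in the sources used here.

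Of the other 5 members, 0 rose and 1 fell in d8. The fall was in Gpx1, and the other 4 did not pass the test. The test was limma on line means of log2(RPKM + 1) with adjustment over all 12468 genes and a threshold of 0.05. At an unadjusted p under 0.05 the counts were also 0 higher and 1 lower, against 11.7% higher and 16.1% lower among all tested genes. For comparison, 8.76% of all tested genes passed, 3.02% higher and 5.74% lower in d8. Of these calls 34.4% were rises, against 44.0% with quantile normalization, 51.5% with each chromosome centred and 51.1% without chromosome 11. The line means of the genotypes did not overlap for 1 of the 5, Gpx1, and for 46.2% of all tested genes.

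Gpx1 (chromosome 9, 108339080 to 108340342, plus strand), the abundant cytosolic peroxidase of most cells, fell in d8. It was measured at 349, 430 and 412 RPKM in GC line 1 and at 454, 425 and 506 RPKM in GC line 2. In d8 it was measured at 289, 284 and 273 RPKM in line 1, at 250, 409 and 313 RPKM in line 2 and at 322 and 305 RPKM in line 3. The libraries overlapped only through d8 2B, which was above 1 GC library, and the line means did not overlap. The mean was 429 ± 45.8 RPKM over the GC lines (SD, n = 2) and 306 ± 21.9 RPKM over the d8 lines (SD, n = 3). On the log2 scale the change was -0.49 with an SE of 0.09 (limma adjusted p = 0.0305). The call needed all 5 lines: without any 1 of them the log2 fold change stayed between -0.60 and -0.38, but the limma adjusted p rose to between 0.055 and 0.101. It was also lost without d8 library 2A (limma adjusted p = 0.0853) and with quantile normalization (log2 fold change -0.44, limma adjusted p = 0.0641).

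**Figure D2:**
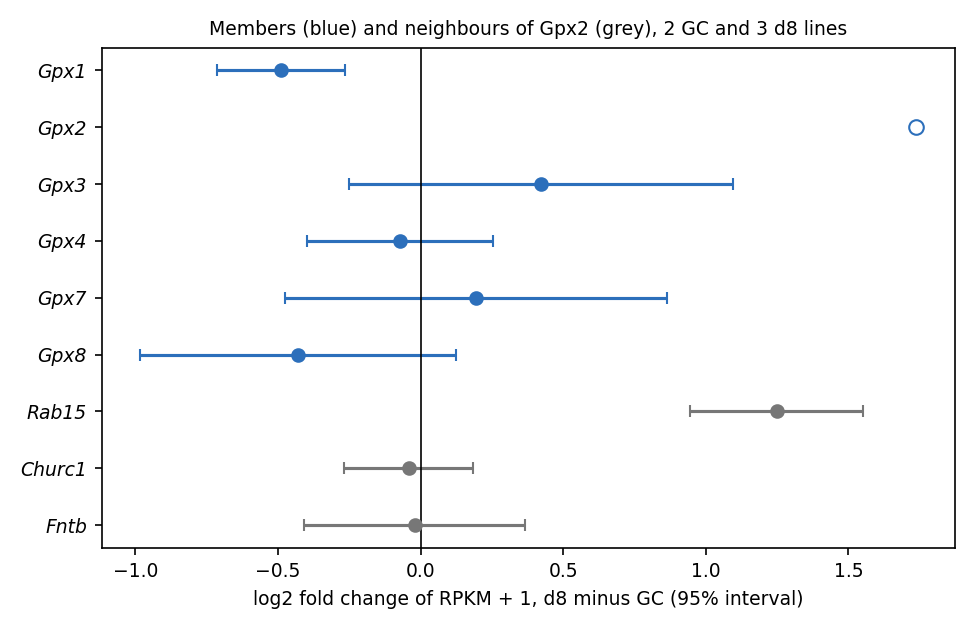
Log2 fold change of RPKM + 1, d8 minus GC, with 95% intervals from limma on 2 GC and 3 d8 lines, for the 6 members (blue) and for the genes that start within 50 kb of Gpx2 (grey). Gpx2 is drawn open and without an interval, since it was selected on this contrast. Gpx1 lies below 0 and Rab15 above it, while the intervals of the other 6 genes include 0.

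Gpx4 (chromosome 10, 80053488 to 80056439, plus strand) was measured at 50.6, 50.1 and 57.3 RPKM in GC line 1 and at 57.4, 63.8 and 52.0 RPKM in GC line 2. The d8 values were 55.4, 56.8 and 76.8 RPKM in line 1, 47.7, 44.1 and 42.7 RPKM in line 2 and 53.0 and 49.4 RPKM in line 3. The genotypes overlapped, with the line mean of d8 line 1 highest and that of d8 line 2 lowest. The means were 55.2 ± 3.58 RPKM in GC (SD, n = 2 lines) and 53.0 ± 9.22 RPKM in d8 (SD, n = 3 lines). The log2 difference was -0.07 with a 95% interval from -0.40 to 0.26 (limma adjusted p = 0.776). The Gpx4 row lies inside the span of the opposite-strand RNA Bc1, which had at most 0.468 RPKM in any library.

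Gpx3 (chromosome 11, 54902854 to 54910387, plus strand), the secreted form found in blood plasma, was measured at 17.5, 13.8 and 20.8 RPKM in GC line 1 and at 12.6, 8.97 and 8.90 RPKM in GC line 2. The d8 values were 10.5, 9.92 and 19.8 RPKM in line 1, 28.5, 21.6 and 18.5 RPKM in line 2 and 19.9 and 20.2 RPKM in line 3. GC line 1 lay among the d8 libraries, so the genotypes overlapped. The log2 fold change was 0.42 with a 95% interval from -0.25 to 1.10 (limma adjusted p = 0.379). With each chromosome centred on its own median it was 0.82 (limma adjusted p = 0.0965).

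The 2 members of the endoplasmic reticulum were the lowest. Gpx7 (chromosome 4, 108400217 to 108406713, minus strand) was measured at 7.77, 6.84 and 11.4 RPKM in GC line 1 and at 5.36, 3.69 and 3.47 RPKM in GC line 2. In d8 it was measured at 6.65, 7.20 and 9.08 RPKM in line 1, at 6.23, 4.72 and 5.28 RPKM in line 2 and at 9.11 and 7.39 RPKM in line 3. The d8 libraries lay between the extremes of the GC libraries, and the log2 fold change was 0.19 with a 95% interval from -0.47 to 0.86 (limma adjusted p = 0.696).

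Gpx8 (chromosome 13, 113042763 to 113046388, minus strand) was measured at 5.40, 6.30 and 6.66 RPKM in GC line 1 and at 5.05, 4.29 and 4.39 RPKM in GC line 2. In d8 it was measured at 2.56, 1.41 and 4.06 RPKM in line 1, at 5.03, 3.13 and 3.79 RPKM in line 2 and at 4.83 and 4.94 RPKM in line 3. The highest values were in GC line 1 and the lowest in d8 line 1, with the other lines overlapping. The log2 fold change was -0.43 with a 95% interval from -0.98 to 0.12 (limma adjusted p = 0.284). Between 21 and 99 estimated reads per library stood behind Gpx8. It also lies inside the opposite-strand gene Cdc20b, and the file headers name no strand setting.

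Differences between lines of 1 genotype do not involve the contrast that chose Gpx2. Between the GC lines, Gpx7 was the 1 of 6 members that passed (limma over the 14 libraries, adjusted over all tested genes), against 6.6% of all tested genes. It was at 8.65 RPKM in GC line 1 and 4.17 RPKM in GC line 2, with no overlap of the libraries, a log2 difference of -0.89 (SE 0.18, limma adjusted p = 0.0111). Without library 2B of GC the limma adjusted p was 0.0549. Gpx2 was at 15.9 ± 7.83 and 9.51 ± 2.66 RPKM in GC lines 1 and 2 (SD, n = 3 libraries), a difference that did not pass (limma adjusted p = 0.24), nor did that of Gpx3 at 17.4 and 10.2 RPKM (limma adjusted p = 0.0821). At an unadjusted p under 0.05, 2 of 6 members differed between the GC lines, as did 22.6% of all tested genes.

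Among the d8 lines, Gpx2 was lowest in line 1 at 33.1 ± 6.72 RPKM (SD, n = 3 libraries), with line 2 at 55.4 ± 14.2 RPKM (SD, n = 3 libraries) and line 3 at 39.8 ± 0.686 RPKM (SD, n = 2 libraries). No member passed the limma F test for a difference among the d8 lines (adjusted p from 0.101 for Gpx4 to 0.686 for Gpx1), against 2.32% of all tested genes, although 4 of 6 members had an unadjusted p under 0.05, as had 17.5% of all tested genes. Within-line p-values rest on the spread of samples from the same line alone, and that spread may be technical.

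Rab15, which encodes a small GTPase of endosome recycling and lies next to Gpx2, rose in d8 as well. Its row in the table starts 18302 bp upstream of Gpx2 on the same strand (chromosome 12, 76797960 to 76813856), and RefSeq lists further starts upstream. It was measured at 6.95, 8.15 and 9.40 RPKM in GC line 1 and at 11.7, 8.67 and 7.42 RPKM in GC line 2. In d8 it was measured at 23.3, 24.8 and 26.5 RPKM in line 1, at 21.7, 17.2 and 18.1 RPKM in line 2 and at 22.4 and 21.7 RPKM in line 3. All d8 libraries were above all GC libraries, as for 4.05% of all tested genes. The mean was 8.71 ± 0.766 RPKM over the GC lines (SD, n = 2) and 21.97 ± 2.92 RPKM over the d8 lines (SD, n = 3). On the log2 scale the change was 1.25 with an SE of 0.13 (limma adjusted p = 0.0123). The limma adjusted p of Rab15 was 0.0649 without GC line 1 and 0.0618 without d8 line 3.

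Both other genes that start within 50 kb of Gpx2 did not pass. Churc1, a zinc finger protein gene, was at 24.8 ± 1.52 RPKM in GC (SD, n = 2 lines) and 24.0 ± 2.04 RPKM in d8 (SD, n = 3 lines), with a 95% interval of the log2 difference from -0.27 to 0.19 (limma adjusted p = 0.815). Fntb, which encodes the beta subunit of farnesyltransferase, was at 33.1 ± 7.75 and 32.4 ± 4.14 RPKM, with an interval from -0.41 to 0.37 (limma adjusted p = 0.947). Of the 3 neighbours, then, 1 rose, beside 3.02% of all tested genes.

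The genes whose levels followed Gpx2 most closely over the 14 libraries were sought among all tested genes on the log2(RPKM + 1) scale. They were 2700038G22Rik (Pearson r = 0.95, n = 14 libraries), Gata4 (0.93), Ermp1 (0.92), Insm1 (0.92) and Ctsl (0.91). Gata4 and Insm1 encode transcription factors, Ermp1 an endoplasmic reticulum metallopeptidase and Ctsl the lysosomal protease cathepsin L. The libraries share lines and genotypes, and these genes were picked for high r, so the values are a description. Within the 8 d8 libraries r was 0.84 for 2700038G22Rik, 0.66 for Gata4, 0.68 for Ermp1, 0.31 for Insm1 and 0.36 for Ctsl. For the neighbour Rab15 r was 0.82 over 14 libraries, 0.46 within the 6 GC libraries and -0.85 within the 8 d8 libraries. In d8, then, the library with the highest Gpx2, 2B at 71.3 RPKM, had the lowest Rab15, 17.2 RPKM, and the one with the lowest Gpx2, 1C, had the highest Rab15, 26.5 RPKM. Among the members, r with Gpx2 over 14 libraries ran from -0.65 for Gpx1 to 0.58 for Gpx3. Within the 8 d8 libraries it was -0.85 for Gpx4, -0.81 for Gpx7, 0.04 for Gpx8, 0.36 for Gpx3 and 0.61 for Gpx1. The signs for Gpx1, Gpx7 and Gpx8 were thus opposite to those over all libraries, where Gpx7 had 0.29 and Gpx8 -0.38. Within the 6 GC libraries r was 0.23 for Gpx4, 0.77 for Gpx7, 0.82 for Gpx8, 0.68 for Gpx3 and -0.23 for Gpx1.

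**Figure D3:**
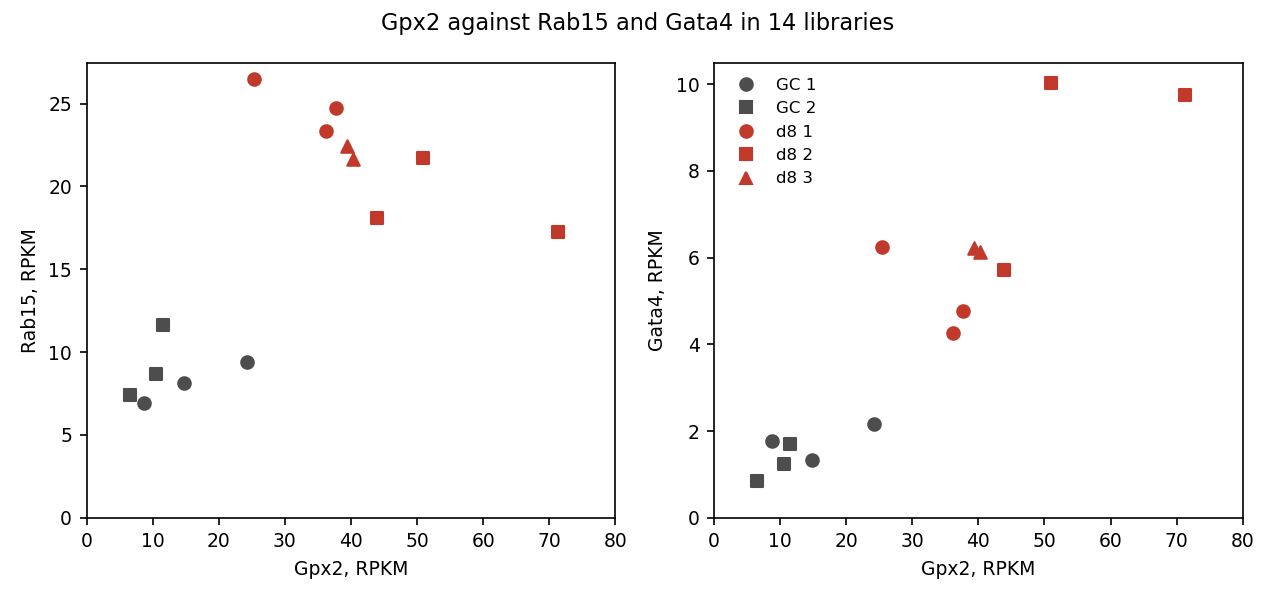
RPKM of Gpx2 (x axis) against RPKM of its neighbour Rab15 (left) and of Gata4 (right) in 14 libraries, grey for GC, red for d8, with a marker shape per line. Both genes were higher in all d8 libraries, but within d8 Rab15 went down as Gpx2 went up, while the 2 highest Gata4 values came with the 2 highest Gpx2 values.

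Gata4 is also a marker of primitive endoderm, a cell type that ES cultures can contain. It was at 0.847 to 2.16 RPKM in GC and 4.26 to 10.0 RPKM in d8. The summed level of the 12 primitive endoderm markers was 29.7 to 85.2 RPKM in GC libraries and 24.4 to 209.7 RPKM in d8 libraries, and 1 of its 8 tested genes, Gata4, rose. Col4a1 and Lama1 made up much of that sum. In Cubn, Gata6 and Sox17 all d8 libraries were also above all GC libraries, as for 4.05% of all tested genes in that direction. Cubn was at 0.198 to 0.513 RPKM in GC and 0.834 to 9.98 RPKM in d8. Gata6 was at 0.176 to 0.577 and 0.988 to 7.96 RPKM, and Sox17 at 0.073 to 0.309 and 0.332 to 2.31 RPKM. In Sox7, Pdgfra, Dab2, Foxa2, Lama1, Col4a1, Hnf4a and Amn the libraries of the genotypes overlapped. The lowest values of Lama1 and Col4a1 were in d8 libraries. Cubn (limma adjusted p = 0.0774) and Gata6 (limma adjusted p = 0.0722) did not pass, and Sox17 was below the filter on low values. Cubn and Gata6 entered the fit only through d8, with GC means of 0.36 and 0.39 RPKM. The share of 4.05% covers tested genes alone, so it does not cover Sox17. Hnf4a was under 1 RPKM in every library. Of 10 markers of gut epithelium, the tissue Gpx2 is known from, 7 were under 1 RPKM in every library, among them Alpi at 0. That list summed to 110.9 to 187.9 RPKM in GC and 128.8 to 202.5 RPKM in d8, nearly all of it Epcam, which ES cells also express, at 107 to 184 RPKM in GC and 127 to 200.4 RPKM in d8 (limma adjusted p = 0.104). Of its 3 tested genes 0 rose and 1 fell, Krt20 (limma adjusted p = 0.0496). Krt20 entered the fit only through its GC mean of 1.02 RPKM, near the filter, against 0.25 RPKM in d8, and its libraries overlapped. Over all tested genes 3.02% rose and 5.74% fell in d8. The summed list had an r with Gpx2 of 0.58 over 14 libraries for gut epithelium and 0.52 for primitive endoderm. The fibroblast or feeder cell markers summed to 357 to 883.5 RPKM in GC and 224 to 316 RPKM in d8, and 4 of 8 tested fell. These were Col1a1, Col1a2, Acta2 and S100a4. Col1a1, Col1a2 and S100a4 entered the fit only through GC, with d8 means of 0.897, 0.237 and 0.882 RPKM. Vim and Fn1, which made up much of that sum, did not pass (limma adjusted p = 0.137 and 0.0782). Thy1 was higher in d8, at 5.15 against 3.67 RPKM, and did not pass either (limma adjusted p = 0.129). The trophoblast markers summed to 135.6 to 247.1 RPKM in GC and 59.4 to 178 RPKM in d8, and 1 of 7 tested fell, Tfap2c. The pluripotency markers summed to 1643 to 2135 RPKM in GC and 1802 to 2197 RPKM in d8, with 1 of 10 higher, Tdgf1, and 1 lower, Nanog. The part of these cell types in the Gpx2 and Gpx1 values was not tested, and in bulk samples fewer cells of a type and less RNA per cell cannot be told apart.

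CTCF peaks near the members were compared between the lists, which hold 26729 peaks for GC and 15546 for Del8. Within 50 kb of the members' start sites the GC list had 14 peaks, of which 6 overlapped a Del8 peak, or 42.9%, close to the 42.0% of all GC peaks. With 1 library per list there is no replicate check. The Del8 list came from fewer reads, 5.59 M against 8.09 M tags, so a peak missing from it may be a site that was not detectable at this depth. Of all GC peaks, 73.2% of the first 6683 in file order had an overlapping Del8 peak, against 14.7% of the last 6682.

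Gpx2 had 4 GC peaks within 50 kb, and 1 of them overlapped a Del8 peak. The retained peak lay 37.3 kb upstream (chr12:76832787-76833019). The nearest GC peak, 8.5 kb upstream and inside Rab15 (chr12:76803892-76804124), was not in the Del8 list, and it stood 75.2% of the way down the GC list. The other peaks missing from the Del8 list lay 41.7 kb upstream, 174 bp from the start of Fntb, and 42.7 kb downstream. The Del8 list also had a peak of its own 30.8 kb downstream, 798 bp from the start of Churc1, at 97.1% of its list. No peak of either list lay in the promoter or body of Gpx2. Such a setting was common: tested genes had a median of 2 GC peaks within 50 kb, 31.0% had at least 4, and of the 9077 tested genes with a GC peak missing from the Del8 list within 50 kb 3.04% rose in d8, against 2.95% of the 3391 without one. The shares that fell were 6.3% and 4.25%, a difference that was not tested.

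**Figure D4:**
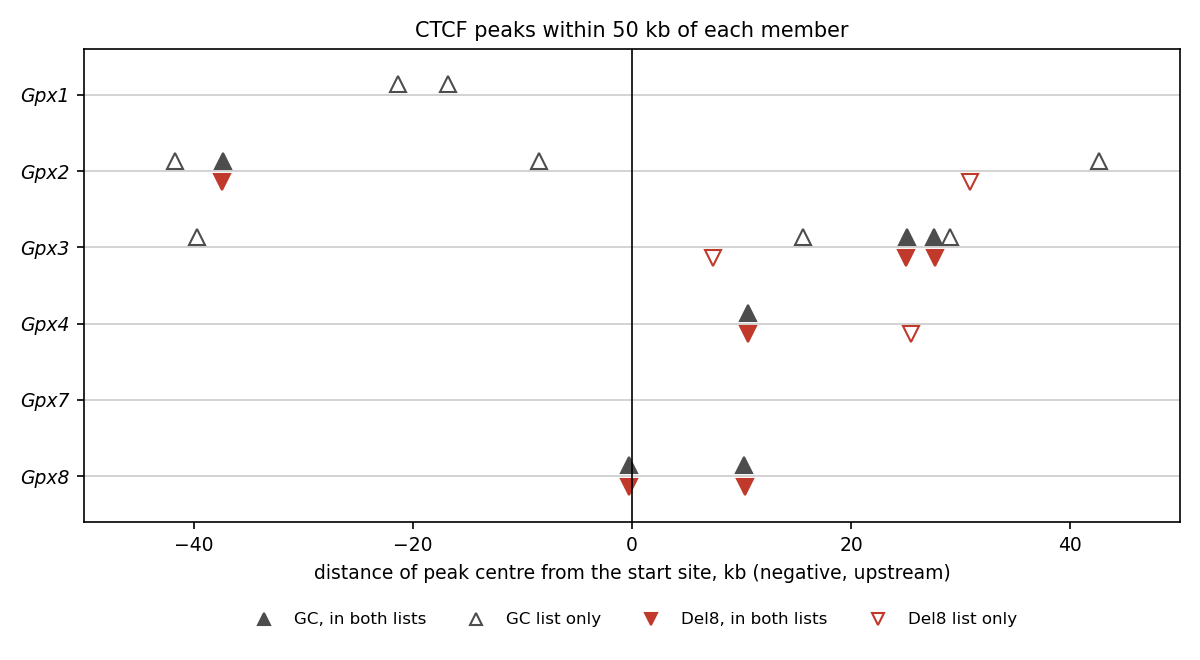
CTCF peaks within 50 kb of the start site of each member, by distance of the peak centre in kb (negative is upstream). Grey upward triangles are GC peaks and red downward triangles Del8 peaks, filled where the peak overlaps one of the other list. Of the 4 GC peaks around Gpx2 1 is filled, both around Gpx8 are filled, both around Gpx1 are open, and Gpx7 has none.

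The other members differed in this setting. Gpx8 had a GC peak 230 bp upstream of its start site and another 10.3 kb downstream, and both overlapped a Del8 peak. Of all tested genes, 10.1% had the centre of a GC peak within 500 bp of the start. Gpx1, the member that fell, had 2 GC peaks 16.8 and 21.4 kb upstream, both inside Rhoa and neither in the Del8 list. Gpx3 had 5 GC peaks, 4 of them inside Tnip1, of which 2 overlapped a Del8 peak, and a Del8 peak of its own lay inside Gpx3 7.4 kb from the start. Gpx4 had 1 GC peak, 10.6 kb downstream, which overlapped a Del8 peak, and a Del8 peak of its own 25.5 kb downstream. Gpx7 had no peak in either list within 50 kb, as had 10.9% of tested genes.

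Gpx2 is a known target of Nrf2, the transcription factor of the antioxidant response encoded by Nfe2l2, in human and rodent cells. The core of the antioxidant response element, TGACNNNGC, was searched on both strands in the RefSeq promoters, 250 bases before to 50 after each start. None of the windows of the 6 members or of Rab15 held it, while 12.4% of 32851 promoters did. Other positions were not searched.

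The wider glutathione and redox system had 105 genes in the table. Of the 95 tested, 3 rose, 9 fell and 83 did not pass (limma, adjusted over all genes). Among all tested genes 3.02% rose and 5.74% fell, and these shares apply beside each group count below as well. Without chromosome 11, 188 tested genes rose and 180 fell, against 376 and 716 with it. Of the 9 redox genes that fell, only Selenom lies on chromosome 11. In 4.05% of all tested genes every d8 library was above every GC library. The share for the reverse order was not computed. The median log2 fold change of the 95 was -0.07, against -0.02 over all tested genes. Without GC line 1 or without d8 line 3, 0 of the 95 passed. Calls over all tested genes, 1092 with all lines, were also few in those settings, with the counts given further below.

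Glutathione synthesis and recycling had 13 tested genes, of which 0 rose and 1 fell. Gss, glutathione synthetase, was at 10.8 ± 2.17 RPKM over the GC lines (SD, n = 2) and fell to 6.005 ± 0.325 RPKM over the d8 lines (SD, n = 3), with no overlap of the libraries (log2 fold change -0.73, limma adjusted p = 0.0262). Among 18 glutathione transferases 1 rose and 4 fell. The rise was in Gstt2, from 8.25 ± 1.10 to 21.7 ± 8.51 RPKM (limma adjusted p = 0.0458). Its libraries overlapped: d8 2B at 9.01 RPKM was below GC 1C, 2A and 2B at 9.58, 9.28 and 13.6 RPKM. The largest falls were in Gstk1, from 7.39 ± 1.26 to 2.85 ± 0.323 RPKM (limma adjusted p = 0.016), and in Gstm6, from 3.36 ± 0.0354 to 1.30 ± 0.286 RPKM (limma adjusted p = 0.0229). Gstm genes are close copies of each other, so the split of reads among them is uncertain.

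Among 17 glutaredoxins, thioredoxins and peroxiredoxins 1 rose and 2 fell. Glrx, glutaredoxin 1, which removes glutathione from proteins, rose from 4.57 ± 1.67 to 11.7 ± 2.73 RPKM (log2 fold change 1.23, limma adjusted p = 0.0325), with no overlap of the libraries. Txnip, the thioredoxin-binding protein, fell from 13.3 ± 0.921 to 8.13 ± 1.20 RPKM (limma adjusted p = 0.0355), and Prdx3, the mitochondrial peroxiredoxin, from 47.7 ± 4.34 to 35.7 ± 1.04 RPKM (limma adjusted p = 0.0342). The libraries of Txnip overlapped, with d8 2A at 11.6 RPKM above GC 2B at 8.24 RPKM, while those of Prdx3 did not. Of 3 superoxide dismutase and catalase genes 0 passed limma, although all 3 were lower at an unadjusted p under 0.05, as were 16.1% of all tested genes. Sod1 was at 629 ± 112.9 RPKM in GC and 457 ± 13.2 RPKM in d8 (limma adjusted p = 0.0622).

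Since 4 members are selenoproteins, the selenocysteine machinery was included. Of its 10 genes 0 rose and 1 fell: Eefsec, the elongation factor for selenocysteine, went from 12.6 ± 0.108 to 9.32 ± 0.628 RPKM (limma adjusted p = 0.0499). Of 12 other selenoproteins 0 rose and 1 fell, Selenom, from 11.5 ± 0.0745 to 6.24 ± 0.447 RPKM (limma adjusted p = 0.0159), a gene of chromosome 11 that did not pass once each chromosome was centred (limma adjusted p = 0.0944). In the Nrf2 pathway 1 of 9 rose, Nfe2l2 itself, from 35.5 ± 3.46 to 47.5 ± 0.840 RPKM (log2 fold change 0.42, limma adjusted p = 0.0323), with no overlap of the libraries. Of 12 genes of lipid peroxidation and ferroptosis, the cell death that Gpx4 prevents, 0 passed limma, with 3 higher and 2 lower at an unadjusted p under 0.05, beside 11.7% and 16.1% of all tested genes. The most abundant over the 5 lines, Fth1, the ferritin heavy chain, was at 464 ± 108.4 RPKM in GC and 517 ± 77.0 RPKM in d8 (limma adjusted p = 0.523).

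**Figure D5:**
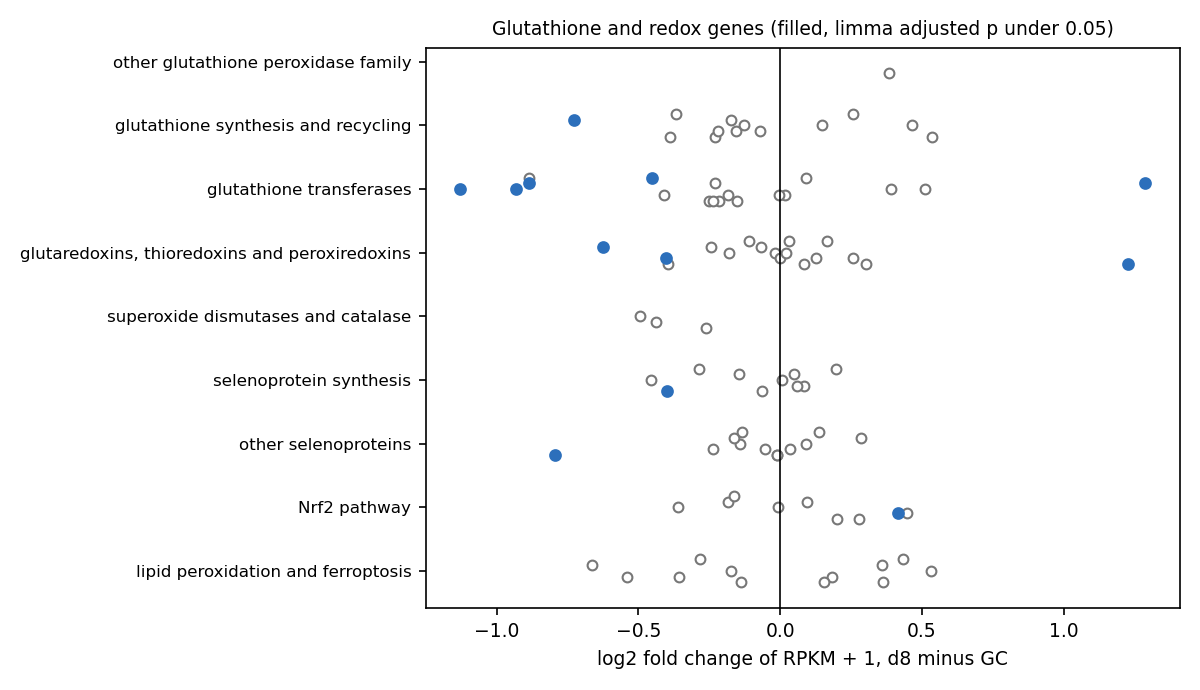
Log2 fold change of RPKM + 1, d8 minus GC, of 95 tested glutathione and redox genes by group, filled where the limma adjusted p was under 0.05. The 12 filled points comprise 3 genes that rose, Gstt2, Glrx and Nfe2l2, and 9 that fell, 4 of them glutathione transferases. Among all tested genes 3.02% rose and 5.74% fell.

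Among the other family members, Gpx5 was at 0 in all libraries. Gpx6 was at 0.496 to 1.57 RPKM in GC and 0.972 to 2.21 RPKM in d8, and its log2 fold change of 0.38 did not pass (limma adjusted p = 0.269, and 0 of 1 genes at an unadjusted p under 0.05).

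The authors' deposited table of their own comparison lists 1280 genes, all past an absolute log2 fold change of 0.5. In the authors' deposited table Gpx2 had a log2 fold change of 1.58 (adjusted p = 1e-25), Gpx7 0.70 (adjusted p = 0.026), Gpx6 2.28 (adjusted p = 0.00015) and Rab15 0.82 (adjusted p = 3.1e-09). The authors' deposited table does not list Gpx1, Gpx3, Gpx4 or Gpx8. Among the redox genes it lists Trnau1ap at 0.82, Gch1 at 0.98 and Acsl4 at 0.51, which did not pass here. It also lists Gstm1 at -0.59 and Selenom at -0.73, which fell here as well. The other redox genes called here are not in it: Gstt2, Glrx and Nfe2l2, which rose, and Gss, Gstk1, Gstm2, Gstm6, Txnip, Prdx3 and Eefsec, which fell. Its test is not stated and its library columns match no sample by name, so its values stand beside the fitted ones and were not merged with them.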

How the data were processed

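Stranded mRNA libraries were sequenced to 50 bp from a single end, per the labels' protocols. The deposited RPKM values of 14 libraries were made by the authors by counting over exons of RefSeq transcripts of mm10 with HOMER, with 1 transcript per gene and its exon length, per the file headers. Besides HOMER, the submitters' processing notes name deepTools, DESeq2, HISAT2, Bowtie and SAMtools without versions, and 2 builds, mm9 and mm10. A deposited table of the authors' own comparison gives log2 fold changes and adjusted p-values. Its sign was that of d8 minus GC for 273 of 280 genes called in both, and its 5 per-library columns were not used. Peaks were called with HOMER findPeaks at a false discovery rate of 0.001, at least 4-fold over the surrounding 10000 bp, per the file headers, and every deposited peak score is 1. The build of the peak lists is not in their headers. They were taken as mm10 because 8.73% of GC peaks on the members' chromosomes lay within 1 kb of a start site of the mm10 table, against 3.29% after a shift by 100 kb.

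RPKM values were averaged per line as log2(RPKM + 1), which understates changes of low genes. Lines were compared with limma 3.58.1 in R 4.3.3 (variance trend, two-sided, Benjamini-Hochberg over 12468 genes whose mean reached 1 RPKM in either genotype, threshold 0.05). Lines of 1 genotype were compared with limma over the libraries. The deposited values were RPKM and not counts, and no count model was run on the estimated reads. Read depth was estimated from the steps of low values, which were whole reads within 0.1 read. Peaks were counted by centre within 50 kb of a start site, and an overlap of at least 1 bp counted as shared.

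The members, gene lists and markers were chosen with earlier results of these data known. Named were all members, genes starting within 50 kb of Gpx2, the 5 genes most correlated with it, and from each group up to 3 called genes of largest change or, with none called, the most abundant. Alternatives varied the pseudocount, filter, scaling, blocking, chromosomes, lines, libraries, peak window and peak overlap. Med-Seq samples and the other ChIP-seq libraries were not analysed here.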

Additional observations from a re-analysis of the deposited data

Results flagged for a closer look

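The 6 members and the 3 neighbours of Gpx2 gave 18 groups of libraries, GC or d8 for each gene, of which 2 had a sample far from the others for the width of the group. Chance flags about 1 in 20 groups. Gpx1 was at 408.779 RPKM in library 2B of d8, above the 7 other d8 libraries, with a gap of 0.543 of the range. Gpx4 was at 76.751 RPKM in library 1C of d8, likewise the highest, with a gap of 0.585 of the range. Without library 2B of d8 the log2 fold change of Gpx1 was -0.55 (limma adjusted p = 0.018).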

How the results depend on the processing

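The log2 fold change of Gpx2, the value that chose the family, ranged from 1.43 without GC line 2 to 2.04 without GC line 1 over the settings run. The number of called genes, 1092, was 290 without a filter on low values, 368 without chromosome 11, 550 with each chromosome centred, 2545 with lines as random blocks and 2230 with the replicate block. With a line or library left out it ranged from 27, without GC line 1, to 1457, without d8 library 2B. It was 30 without d8 line 3, 115 without d8 line 1, 516 without GC line 2 and 577 without d8 line 2. The 12 called glutathione and redox genes became 3, 5, 23 and 22 without the filter, without chromosome 11, with the random block and with the replicate block, and 0 to 16 with a line or library left out (0 without GC line 1 or d8 line 3, 2 without d8 line 1, 5 without GC line 2 and 7 without d8 line 2).

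The call of Gpx1 was lost without the filter (log2 fold change -0.49, limma adjusted p = 0.0821) and with quantile normalization (-0.44, limma adjusted p = 0.0641), and its log2 fold change ranged from -0.60 to -0.38 with a line or library left out. Values that changed sign were all uncalled. Fntb was at 0.035 with quantile normalization and at 0.21 without GC line 2 (range from -0.26 with 1 left out), Gpx4 at 0.037 without d8 line 2 (range from -0.20), Gpx7 at -0.25 without GC line 2 (range to 0.64), Churc1 at 0.052 without GC library 1C (range from -0.11) and Fth1 at -0.039 without GC line 2 (range to 0.40).

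Calls between the GC lines ranged from 354 to 1058 with a library left out, lowest without GC library 2B, and calls among the d8 lines from 80, without d8 library 1A, to 406. Near the members, 6 GC peaks lay within 20 kb and 35 within 100 kb, of which 3 and 15 overlapped a Del8 peak. The upper part of each list by file order, up to its middle, gave 6 and 1. Around Gpx2 the window of 20 kb gave 1 and 0, as did the upper part of each list. Why counts moved was not tested. Sample letters did not pair libraries across lines: deviations of same-letter libraries had a median r of -0.03 and other-letter ones 0.02. Depth limits Gpx8 most, and the ChIP lists cannot show weak sites.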
